A study of Mus musculus with 9 samples.

Results

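The Fam46 genes of the mouse heart, Fam46a, Fam46b and Fam46c, were examined in 9 hearts, and they are 3 of the 13890 genes in the deposited count table. The members were taken by symbol. They were chosen by measured values, with these comparisons already known, because Fam46b has one of the largest falls from T to A + T. The fold changes and levels of the 3 genes are therefore a description, and no P-value is given for them. Fam46d, the remaining gene of the family, was not analysed here.

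Fam46 proteins (now also named TENT5) are non-canonical poly(A) polymerases, which lengthen the poly(A) tails of mRNAs in the cytoplasm. A longer tail generally makes an mRNA more stable and better translated, and the best known targets encode secreted proteins. FAM46C is known as a tumour suppressor of multiple myeloma that acts on immunoglobulin mRNAs in plasma cells, FAM46A acts on collagen I mRNAs in bone, and the role of FAM46B is less well known. RNA sequencing as done here measures how much of each mRNA is present, and not the length of its tail.

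The hearts came from NSG male mice, an immunodeficient strain (NOD-scid with a null IL2Rg gene) that lacks mature B, T and NK cells and accepts human tumours. The mice were 8 weeks old at surgery, before the time to euthanasia given below, and there were 3 animals per group. Sham mice (S, animals 2, 3 and 5) had sham surgery and weekly saline into the peritoneum. Mice labelled T (animals 11, 12 and 15) were given HCT116 cells, a human colorectal cancer line that then forms liver metastases, into the spleen, and the same weekly saline. Mice labelled A + T (animals 20, 21 and 22) were given the same cells and, in place of saline, ACVR2B/Fc, a soluble activin receptor fused to an antibody Fc fragment that binds activins, myostatin and related ligands, at 10 mg/kg weekly into the peritoneum. The methods place euthanasia on day 25 and the labels in week 3. The tumour model is 1 cell line in mice without adaptive immunity. No library was labelled as coming from a mouse given ACVR2B/Fc without a tumour.

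The libraries held 12392222 to 19732471 counts, so that 3 counts correspond to 0.152 to 0.242 CPM (counts scaled to a common library size), and the ribosomal RNA gene Rn45s took 4.57 to 19.6% of them. Libraries of 1 group correlated at 0.971 to 0.991 (log2 CPM, across genes). The libraries labelled T did not match their label. Across 429 genes, the T vs. S fold changes correlated at r = 0.9999 with a published contrast of sham mice given ACVR2B/Fc with sham (same sign in 428 genes) and at r = 0.275 with that of tumour hosts with sham (326 genes). The A + T vs. S fold changes correlated at r = 0.99996 (429 genes) with a sum of published contrasts. The sum adds the contrast of treated with untreated tumour hosts to that of tumour hosts with sham. The libraries labelled T may therefore be hearts of sham mice given ACVR2B/Fc, which would change what every value that rests on T compares, and the files do not settle this. T means the libraries labelled T throughout, and a direction given for T is theirs. Airway RNA (Scgb1a1) reached 1345 counts in animal 12 and 17508 in animal 22, and values without both animals are given where they matter. The adipocyte markers (4 of 5 listed, summed) also stood at 78.1 CPM in animal 12, against 1.22 to 18.4 in the other libraries. The cardiomyocyte markers (7 of 7 listed, summed) lay at 45057 to 69449 CPM in all 9 libraries, as for heart muscle.

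The 3 genes lie on different chromosomes of GRCm38 (the assembly that mm10 names), in the GENCODE M21 annotation that lists them as Tent5a, Tent5b and Tent5c. Fam46a spans chromosome 9 from 85320439 to 85327348 on the minus strand, with 3 exons. Fam46b spans chromosome 4 from 133480132 to 133487938 on the plus strand, with 2 exons. Fam46c spans chromosome 3 from 100451628 to 100489324 on the minus strand, with 2 exons, of which 1 is coding.

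The coding sequences were of like length, 1341 bases in Fam46a, 1281 in Fam46b and 1173 in Fam46c. Most of the Fam46a and Fam46c transcripts was 3′ UTR (73.3% and 74.6%), against 36.5% in Fam46b. Identity over the aligned coding bases was 69.2% between Fam46a and Fam46b, 71.5% between Fam46a and Fam46c, and 68.1% between Fam46b and Fam46c. The longest run shared by a pair was 24 bases, and no pair shared a run of 25 bases, so a 75-base read could not match 2 of these coding sequences exactly. An antisense gene, Gm13257, overlaps Fam46b over 2395 bases on the other strand. The counting was strand-specific, and Gm13257 is not among the genes analysed.

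The promoters are shown as a description of the sequence before the start of the 3 paralogs, and a link to their levels was not tested. The stretches below end at the base before the most upstream annotated start and are taken from RefSeq windows of GRCm38.p6 (250 bases before to 50 after a start), in which all 3 genes were matched through synonyms. They are written 5′ to 3′ on the gene's own strand, and capitals mark the CCAAT box, searched on both strands.
Fam46b, chr4:133479883-133480131, plus strand: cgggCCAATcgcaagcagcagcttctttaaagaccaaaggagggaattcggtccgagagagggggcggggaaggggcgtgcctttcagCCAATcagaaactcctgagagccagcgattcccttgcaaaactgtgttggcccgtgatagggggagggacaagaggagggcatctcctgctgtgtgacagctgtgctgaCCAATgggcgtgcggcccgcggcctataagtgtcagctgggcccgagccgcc
Fam46c, chr3:100489325-100489442, minus strand: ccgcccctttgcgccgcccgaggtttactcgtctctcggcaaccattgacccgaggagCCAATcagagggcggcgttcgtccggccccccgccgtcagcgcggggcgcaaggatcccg
Fam46a, chr9:85327349-85327400, minus strand: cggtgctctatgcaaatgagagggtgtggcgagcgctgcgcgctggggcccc
Fam46b holds 3 CCAAT boxes, at −246, −162 and −53 from its RefSeq start. Fam46c holds 1, at −192. Fam46a holds none in its window. Of 32851 mouse promoter windows of the same length, 37.4% hold at least 1 CCAAT box.

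Other motifs were searched on both strands of the same windows. TATAAA (13.6% of all windows) occurs once in the Fam46a windows, at −178 and −204 from the 2 RefSeq starts, and in neither of the others. CACGTG (7.15%), GTAAACA (3.65%), AGAACA (19.0%), TGACGTCA (1.79%), TGANTCA (7.81%), TTCNNNGAA (8.30%) and GTCTAGAC (0.213%) occur in no window of the 3 genes. The windows were rich in G and C, with 70.3 and 72.0% in Fam46a, 60.7% in Fam46b and 78.0% in Fam46c, against a median of 52.7% over all windows. A match is a description of the letters and not a bound site.

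Fam46b was the member that differed most between the groups. The S libraries (animals 2, 3 and 5) held 74, 35 and 28 counts of it, the T libraries (animals 11, 12 and 15) 276, 391 and 111, and the A + T libraries (animals 20, 21 and 22) 45, 39 and 87. On the CPM scale the S libraries were at 4.09, 1.78 and 2.03, the T libraries at 17.1, 23.2 and 10.4, and the A + T libraries at 2.78, 2.80 and 5.36. Every library labelled T was above every S and every A + T library, while S and A + T overlapped.

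The mean level of Fam46b was 2.63 ± 1.27 CPM for sham, 16.9 ± 6.43 for T and 3.65 ± 1.48 for A + T (SD, n = 3). It was 6.42-fold higher in T vs. S (log2 fold change 2.68 ± 0.39, SE), and 18 of the 13364 genes tested had a larger rise. It was 4.64-fold lower in A + T vs. T (log2 fold change −2.21 ± 0.38), with 8 genes below it. Without animal 11 the A + T vs. T value was −2.21 and no longer called. Without animals 12 and 22 the log2 fold change of Fam46b was 2.40 in T vs. S and −2.32 in A + T vs. T, both called. Against S, the log2 fold change of A + T was 0.47 ± 0.41 (approximate 95% interval −0.34 to 1.28). The rise in T and the fall in A + T both rest on the 3 libraries labelled T, so a level peculiar to those libraries enters both differences with opposite sign.

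**Figure D1:**
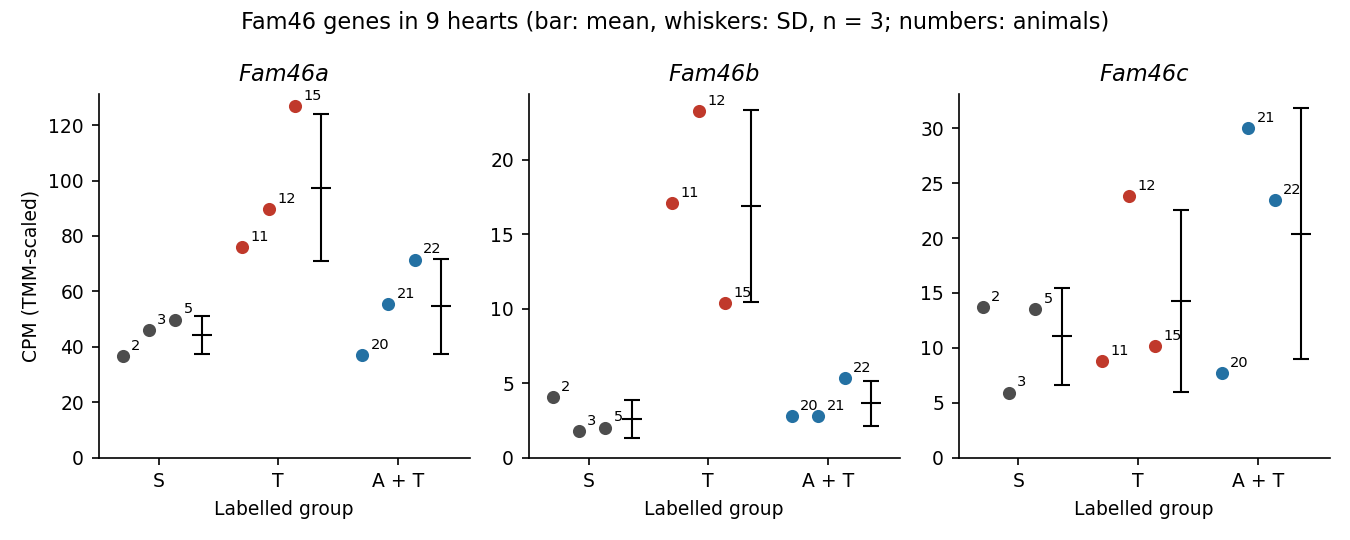
Levels of Fam46a, Fam46b and Fam46c in CPM (linear axis from 0) by labelled group, with each point an animal, the short bar the mean and the whiskers the SD of 3 animals. For Fam46b the lowest T library (10.4 CPM, animal 15) stands above the highest library of the other groups (5.36 CPM, animal 22), whereas the Fam46c points of the 3 groups overlap.

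Fam46a was the member with the most counts and differed in the same directions as Fam46b, by less. The S libraries held 661, 908 and 689 counts, the T libraries 1226, 1507 and 1356, and the A + T libraries 600, 771 and 1160. On the CPM scale the S libraries stood at 36.6, 46.1 and 49.8, the T libraries at 76.0, 89.6 and 127, and the A + T libraries at 37.1, 55.3 and 71.5. The T libraries were again above all S libraries and all A + T libraries, but the gap to A + T was narrow, from 71.5 CPM in animal 22 to 76.0 in animal 11.

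Fam46a averaged 44.2 ± 6.85 CPM for sham, 97.5 ± 26.4 for T and 54.6 ± 17.2 for A + T (SD, n = 3). It was 2.20-fold higher in T vs. S (log2 fold change 1.14 ± 0.24, SE), and 222 genes rose more. Its A + T vs. T log2 fold change was −0.83 ± 0.24, a level 1.78-fold lower that the fit did not call, and against S it was 0.31 ± 0.24 (approximate 95% interval −0.16 to 0.78). The A + T vs. T log2 fold change of Fam46a was called without animal 22 (−1.08) and without animals 12 and 22 (−1.13).

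Fam46c, the member known from plasma cells, varied as much within groups as between them. There were 248, 117 and 187 counts of it in the S libraries, 142, 401 and 109 in the T libraries, and 125, 418 and 381 in the A + T libraries. As CPM, the S libraries gave 13.7, 5.94 and 13.5, the T libraries 8.80, 23.8 and 10.2, and the A + T libraries 7.73, 30.0 and 23.5. Animal 12 of T and animals 21 and 22 of A + T stood above the other 6 libraries, so each group that held high libraries also held low ones.

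The means of Fam46c were 11.1 ± 4.44 CPM for sham, 14.3 ± 8.31 for T and 20.4 ± 11.5 for A + T (SD, n = 3). Its log2 fold change was 0.39 ± 0.52 (SE) in T vs. S. It was 0.50 ± 0.50 in A + T vs. T, and A + T differed from S by 0.89 ± 0.51. The approximate 95% intervals, −0.62 to 1.40, −0.49 to 1.48 and −0.11 to 1.89, leave room for a rise of more than 2.20-fold, the change of Fam46a in T vs. S. Without animal 12, or without animals 12 and 22, the T vs. S log2 fold change of Fam46c turned to −0.21 and −0.20.

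The fit across all genes (edgeR's quasi-likelihood test, Benjamini-Hochberg adjusted P under 0.05) called 2 of the 3 members in T vs. S, both higher. The same 2 were called by DESeq2. edgeR called 21.2% of all genes tested in that comparison, 10.3% higher and 11% lower. Between A + T and T it called 1 of the 3, lower, against 5.88% of all genes (3.09% higher and 2.79% lower), and DESeq2 called 2, Fam46a and Fam46b. Between A + T and S it called 0 of the 3, as did DESeq2, against 8.31% of all genes (4.67% higher and 3.64% lower). The groups did not overlap for 2 of the 3 members in T vs. S (42.6% of all genes), for 2 of the 3 in A + T vs. T (25.4%) and for 0 of the 3 between A + T and S (32.4%). Since these contrasts chose the members, nothing is read from their counts.

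**Figure D2:**
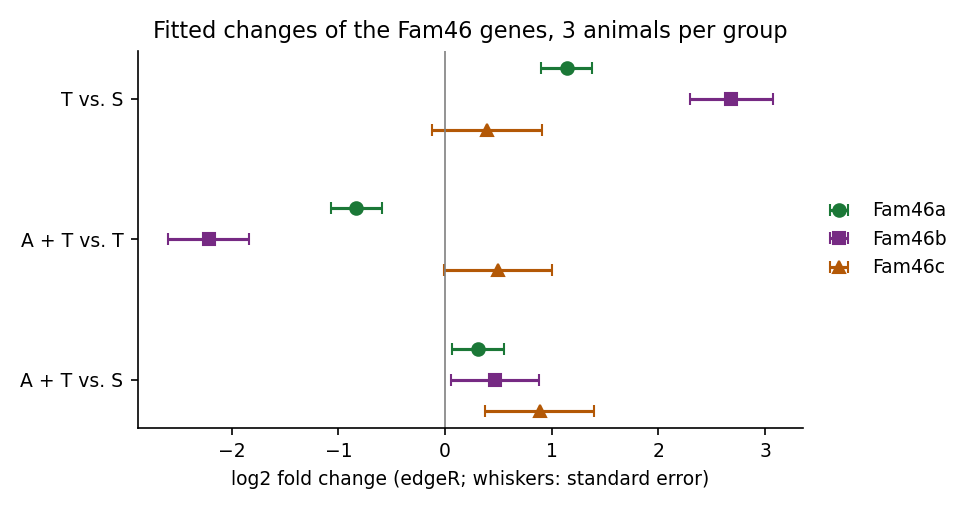
Log2 fold changes of Fam46a, Fam46b and Fam46c in the 3 comparisons of the groups, with whiskers for the SE. Fam46b has the values farthest from 0 (2.68 and −2.21), and between A + T and S all 3 members lie at 0.31 to 0.89.

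The spread between animals of 1 group differed among the members. The biological coefficient of variation of the fit was 20.7% for Fam46a, 31.8% for Fam46b and 42.5% for Fam46c. Counting error was below this spread for each gene, at most 4.08% of the count for Fam46a, 9.58% for Fam46c and 18.9% for Fam46b in the library with its fewest counts. The SE of the T vs. S log2 fold change was 0.24 for Fam46a, 0.39 for Fam46b and 0.52 for Fam46c, the order of the spread between animals. Within groups, the highest library exceeded the lowest by 1.36- to 1.93-fold for Fam46a, 1.93- to 2.30-fold for Fam46b and 2.31- to 3.88-fold for Fam46c.

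Levels of different genes were compared only on the deposited log2 values, which behave as scaled by a constant per gene, such as its length. Their scale is not described, and gene lengths were not checked against it. In animal 11, Fam46b was at 17.1 CPM and 2.91 on this scale, and Fam46c at 8.80 CPM and 2.13. If the constant is length, Fam46c is treated as the shorter, whereas its GENCODE transcript is the longer (5640 against 2287 bases). The order, gaps, percentiles and shares of the 3 genes depend on this. On this scale Fam46a was at 2.99 ± 0.23 for sham, 4.11 ± 0.38 for T and 3.25 ± 0.47 for A + T (SD, n = 3). In the same order Fam46b was at 0.17 ± 0.62, 2.81 ± 0.58 and 0.65 ± 0.52, and Fam46c at 2.36 ± 0.68, 2.68 ± 0.77 and 3.12 ± 1.03. Fam46a was the highest of the 3 in 7 of 9 libraries, Fam46c in the other 2 (animals 2 and 21), and Fam46b was the lowest in 8 of 9.

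Of the gaps between members within a library, that between Fam46b and Fam46c changed most from S to T, while Fam46b stayed lowest in 8 of 9 libraries. The difference of Fam46b from Fam46c in log2 level was −2.84 to −1.84 in S, −0.21 to 0.78 in the T libraries and −3.54 to −1.61 in A + T. On the deposited scale, Fam46b was therefore well below Fam46c in all S and A + T libraries and close to it in all T libraries. A longer length for Fam46c would lower its level beside that of Fam46b, and this was not tested. Fam46a and Fam46c, the neighbours at the top of the order, differed by 0.63 ± 0.78 in S and 0.14 ± 0.68 in A + T, within the spread between animals, and by 1.43 ± 0.88 in T. Among all 13890 genes, the mean level of Fam46b stood at percentile 19.4 for sham, 56.5 for T and 23.2 for A + T. Fam46a stood at percentiles 59.5, 77.3 and 64.8, and Fam46c at 48.3, 54.2 and 62.1.

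As a share of the summed length-scaled level of the 3 genes, Fam46b made up 8.16 ± 3.41% for sham, 23.3 ± 8.14% for T and 8.15 ± 2.97% for A + T (SD, n = 3). Fam46a held 55.5 ± 12.7%, 55.5 ± 14% and 47.8 ± 9.18%. Fam46c held 36.4 ± 10.5%, 21.1 ± 8.41% and 44.1 ± 12.1%. The lowest share of Fam46b in T, 14% in animal 15, was above its highest share elsewhere, 12% in animal 2.

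**Figure D3:**
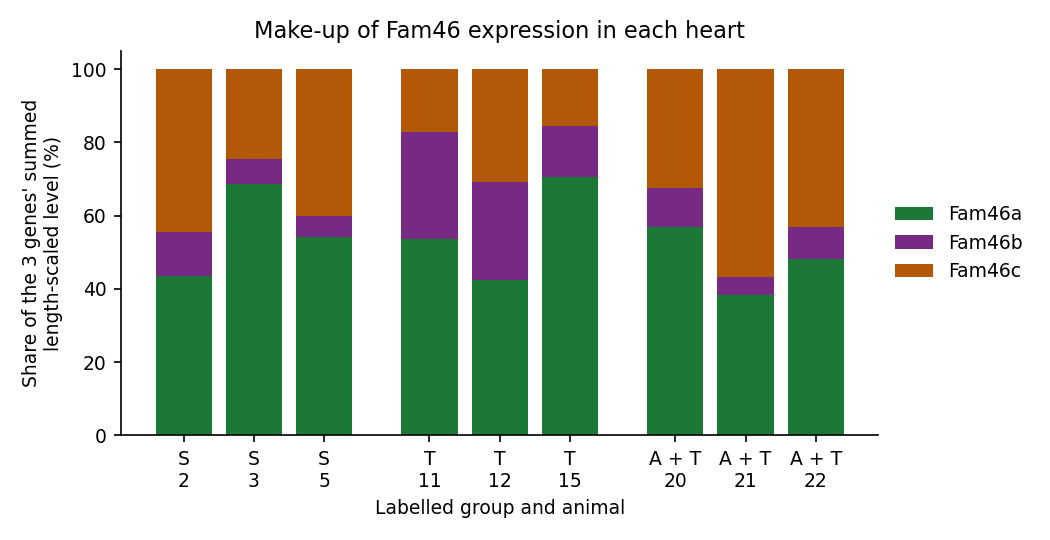
Share of each Fam46 gene in the summed length-scaled level of the 3 genes, in percent, for each of the 9 libraries. The Fam46b part covers 14 to 29.2% in the T libraries and 4.88 to 12% in the S and A + T libraries. The shares depend on the gene lengths behind the deposited values, which were not checked.

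The members did not share a pattern across the 9 libraries beyond the rise of Fam46a and Fam46b in T. Pearson correlations of log2 CPM were 0.75 between Fam46a and Fam46b, 0.23 between Fam46a and Fam46c, and 0.21 between Fam46b and Fam46c. These points share 3 groups and the library totals, so the values are a description. Among the 13182 genes with enough counts to be compared, Fam46b held rank 674 by likeness to Fam46a.

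The genes closest to Fam46b over the 9 libraries were Map3k6 (r = 0.98), a stress-activated kinase, Nt5e (0.98), the ectonucleotidase CD73 that forms adenosine, Fkbp5 (0.98), a co-chaperone of steroid receptors, Hecw2 (0.97), a ubiquitin ligase, and Gtdc1 (0.97). From S to T their log2 fold changes were 2.30, 1.26, 1.59, 0.72 and 0.43, and from T to A + T −2.05, −1.09, −1.58, −0.50 and −0.35. Of these 5, Map3k6 came nearest in size to Fam46b. Its level was 6.98 ± 1.65 CPM for sham, 34.2 ± 9.24 for T and 8.27 ± 2.57 for A + T (SD, n = 3).

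Closest to Fam46a were Zxdc (r = 0.96), Ifit1 (0.94), an interferon-induced gene, Slc3a2 (0.94), the heavy chain of amino acid transporters, Mafk (0.94), a small Maf transcription factor, and Pvr (0.93), a nectin-like adhesion receptor. Their log2 fold changes in T vs. S were 0.46, 1.81, 0.80, 0.67 and 0.66. Between A + T and T they were −0.35, −1.21, −0.39, −0.47 and −0.51, lower in A + T like Fam46a.

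All 5 genes closest to Fam46c are known from red blood cells. They were Slc4a1 (r = 0.97), the anion exchanger of the red cell membrane, Bpgm (0.97), which makes 2,3-bisphosphoglycerate, Slc25a37 (0.96), the mitochondrial iron carrier, Alas2 (0.95), the first enzyme of haem synthesis in red cells, and Trim10 (0.95). Of the 5 erythroid markers listed, Alas2 and Slc4a1 were among the genes analysed and the 3 globin genes were not. Their summed level was 153, 75.4 and 157 CPM for the S libraries, 143, 301 and 131 for the T libraries, and 74.1, 307 and 362 for the A + T libraries, in the order of animals given above. The 3 libraries with the most erythroid RNA, animals 12, 21 and 22, were those with the most Fam46c.

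Across the 9 libraries, log2 Fam46c and the log2 erythroid sum correlated at r = 0.95 (Spearman's rho 0.90), at r = 0.96 for deviations from the group means and at r = 0.97 without the 2 libraries farthest from the median. The same r was 0.39 for Fam46a and 0.37 for Fam46b. Per 100 CPM of the erythroid sum, Fam46c was at 7.87 to 8.99 CPM for sham, 6.15 to 7.93 for T and 6.49 to 10.4 for A + T, which is a narrower range than that of Fam46c itself. In bulk RNA, more cells of a type and more RNA per cell cannot be told apart, and the part of red cell RNA in the level of Fam46c was not tested.

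**Figure D4:**
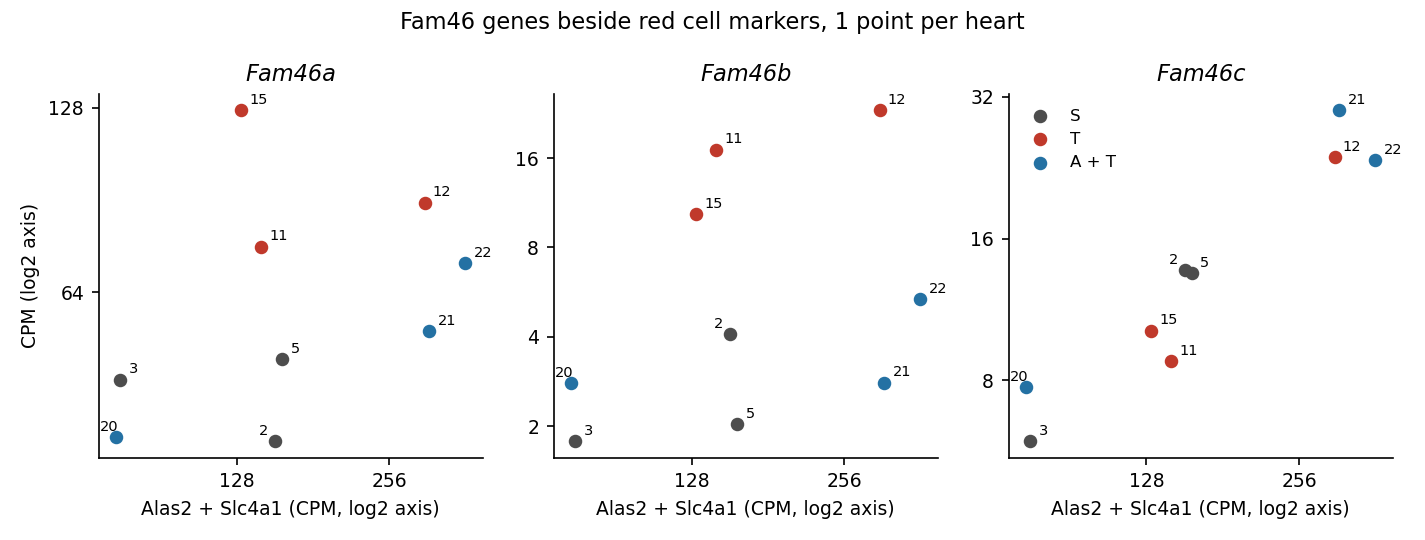
Level of each Fam46 gene against the summed level of Alas2 and Slc4a1 in the 9 libraries, in CPM with both axes on a log scale, points coloured by labelled group and numbered by animal. Fam46c follows the erythroid sum across the groups (r = 0.95), and Fam46a and Fam46b do so less (0.39 and 0.37).

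Plasma cells, in which FAM46C is best known, arise from B cells, which NSG mice lack. Of the B and plasma cell markers listed, Mzb1 alone was among the genes analysed, at 0.680 to 1.77 CPM, and the immunoglobulin genes Ighm, Igkc and Jchain were not analysed here. Mzb1 was higher in S (1.32 to 1.77 CPM) than in T (0.713 to 0.842) and A + T (0.680 to 0.863). Its r with Fam46c was −0.18 across the 9 libraries and 0.53 for deviations from the group means, at levels too low to follow a cell type.

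Markers of other cells of the heart also moved between the groups in which Fam46a and Fam46b differed. The summed fibroblast markers (6 of 6 listed) lay at 1519 to 1712 CPM for sham, 842 to 979 for T and 1132 to 1764 for A + T, and all 6 were called lower in T vs. S (11% of all genes) and 4 of 6 higher in A + T vs. T (3.09% of all genes). Endothelial markers lay at 910 to 1011, 516 to 658 and 679 to 810 CPM, and 5 of 6 were called lower in T vs. S (11% of all genes). Across the 9 libraries, r with the fibroblast sum was −0.90 for Fam46a and −0.83 for Fam46b. It was −0.62 and −0.81 with the endothelial sum, and −0.65 and −0.81 with the smooth muscle and pericyte sum. For deviations from the group means, the fibroblast r was −0.60 and −0.02, and the endothelial r 0.73 and 0.05. The smooth muscle and pericyte r was then 0.20 and −0.47. The part of cell composition in the levels of Fam46a and Fam46b was not tested. Cardiomyocyte markers, at 55993 to 69449, 49673 to 62034 and 45057 to 65238 CPM, overlapped between the groups as a sum. In T vs. S, 2 of 7 in that list were called higher (10.3% of all genes). In A + T vs. T, 1 of 7 was called lower (2.79% of all genes). Actn2 rose by 0.51 ± 0.13 (SE) on the log2 scale in T vs. S (adjusted P = 0.0179, edgeR). It fell by 0.61 ± 0.13 in A + T vs. T (adjusted P = 0.0247, edgeR). Tnnt2 rose by 0.34 ± 0.10 in T vs. S (adjusted P = 0.036, edgeR). Myh6 went the other way from Actn2 in both comparisons. Its log2 fold change was −0.58 ± 0.22 in T vs. S (adjusted P = 0.0832, edgeR) and 0.29 ± 0.22 in A + T vs. T (adjusted P = 0.469). The other 4 were not called in either comparison. Atrial markers (5 of 5 listed) summed to 3000 to 3084 CPM for sham, 861 to 4554 for T and 793 to 2055 for A + T. Of these 5, Bmp10 alone was called in T vs. S (log2 fold change −6.07 ± 1.43, adjusted P = 0.0135, edgeR), where 11% of all genes were called lower. For deviations from the group means, r with the atrial sum was 0.10 for Fam46a, 0.67 for Fam46b and 0.70 for Fam46c, and the part of atrial tissue in their levels was not tested. Smooth muscle and pericyte markers lay at 338 to 412 CPM for sham, 161 to 218 for T and 209 to 289 for A + T. Macrophage markers summed to 172 to 186, 180 to 198 and 221 to 311, so their sum set A + T apart and not T. Of these 6 genes, 4 were called higher in A + T vs. T (3.09% of all genes), where Mrc1 had a log2 fold change of −0.31 ± 0.16. Cd163 was called higher in T vs. S (0.51 ± 0.16, adjusted P = 0.0481, edgeR), as were 10.3% of all genes.

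The collagen I genes, whose mRNAs FAM46A lengthens in bone, ran opposite to Fam46a between S and T. Col1a1 was at 121, 99.8 and 134 CPM for the S libraries, 35.0, 33.1 and 45.1 for the T libraries, and 165, 75.5 and 44.5 for the A + T libraries. It fell by 1.65 ± 0.38 (SE) on the log2 scale in T vs. S (adjusted P = 0.0116, edgeR), and its A + T vs. T difference was 1.34 ± 0.38 (adjusted P = 0.0643). Col1a2 averaged 184 ± 20.1 CPM for sham, 56.7 ± 6.70 for T and 129 ± 56.3 for A + T (SD, n = 3). It fell by 1.70 ± 0.25 in T vs. S (adjusted P = 0.00139, edgeR) and rose by 1.18 ± 0.25 in A + T vs. T (adjusted P = 0.0248). Col1a1 is also 1 of the 6 fibroblast markers above, and Ighm, Igkc and Jchain, the other listed targets, were not analysed here.

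None of the 3 listed partners of FAM46C was called in any of the 3 comparisons by edgeR or by DESeq2. Over all genes edgeR called 21.2% in T vs. S, 5.88% in A + T vs. T and 8.31% in A + T vs. S. For 3 genes, no call is therefore not informative. Fndc3a and Fndc3b anchor FAM46C at the endoplasmic reticulum, and Plk4 is the kinase of centriole duplication. Fndc3a was at 33.2 ± 1.08 CPM for sham, 27.0 ± 5.02 for T and 33.3 ± 3.11 for A + T (SD, n = 3), with a T vs. S log2 fold change of −0.30 ± 0.13 (adjusted P = 0.126, edgeR). Fndc3b lay at 65.1, 66.9 and 65.9 CPM, and Plk4 at 2.41, 2.24 and 2.34 CPM on average. At an unadjusted P under 0.05, 1 partner passed in T vs. S, 1 in A + T vs. T and 0 between A + T and S. The share of all genes at that threshold is not given here, so nothing is read from these counts.

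Other genes that add, bind or remove poly(A) tails were set beside the Fam46 genes. Of 54 listed names, 44 were in the count table, and all 44 passed the filter on low counts. The listed name Gld2 is another name of Papd4, which is counted once, among the nucleotidyltransferases. In T vs. S, 8 were called higher and 1 lower (20.5%, against 21.2% of all genes), with a median log2 fold change of 0.11 against −0.0038 over all genes. Between A + T and T, 1 was called higher and 3 lower (9.09%, against 5.88%), with a median of −0.10 against 0.0098. Between A + T and S, 5 were called higher and 2 lower (15.9%, against 8.31%), with a median of 0.03 against 0.0034. None of these 44 genes changed as much as Fam46b in T vs. S or in A + T vs. T. Fam46b was chosen with those values known, so nothing is read from this. Ccrn4l, of the deadenylation list, fell by more than Fam46a in A + T vs. T (log2 fold change −1.29 against −0.83).

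Among the 9 other nucleotidyltransferases, the uridylyltransferase Zcchc11 (TUT4) rose in T vs. S by 0.50 ± 0.11 on the log2 scale (adjusted P = 0.0101, edgeR). Papola, the canonical nuclear poly(A) polymerase, fell by 0.26 ± 0.07 in T vs. S (adjusted P = 0.0297) and by 0.30 ± 0.07 in A + T vs. S (adjusted P = 0.0344). No gene of this list was called in A + T vs. T by edgeR (5.88% of all genes) or by DESeq2, with 1 gene at an unadjusted P under 0.05. The T vs. S log2 fold changes of these 9 enzymes lay between −0.26 and 0.50, beside 1.14 for Fam46a and 2.68 for Fam46b, which were chosen with their values known.

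In the cytoplasmic polyadenylation list, 2 of 5 genes were called higher in T vs. S (10.3% of all genes). Cpeb1, which binds the cytoplasmic polyadenylation element, was at 12 ± 0.929 CPM for sham, 20.9 ± 1.65 for T and 17.6 ± 2.32 for A + T (SD, n = 3). It rose by 0.80 ± 0.12 on the log2 scale in T vs. S (adjusted P = 0.00154, edgeR) and by 0.55 ± 0.12 in A + T vs. S (adjusted P = 0.0223). Sympk, the scaffold symplekin, rose by 0.51 ± 0.07 in T vs. S (adjusted P = 0.00123, edgeR) and fell by 0.46 ± 0.07 in A + T vs. T (adjusted P = 0.00868), the directions of Fam46b.

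Of the 7 poly(A)-binding proteins and their partners, Pabpn1, the nuclear poly(A)-binding protein, rose by 0.36 ± 0.09 in T vs. S (adjusted P = 0.0186, edgeR) and by 0.35 ± 0.09 in A + T vs. S (adjusted P = 0.0405). Paip1, which binds the cytoplasmic poly(A)-binding protein, rose by 0.24 ± 0.07 in T vs. S (adjusted P = 0.0253, edgeR) and fell by 0.29 ± 0.07 in A + T vs. T (adjusted P = 0.0307). The 5 others were not called in T vs. S, in which edgeR called 21.2% of all genes.

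Of the 23 genes of deadenylation, which act against poly(A) polymerases, 3 were called higher in T vs. S (13.0%, against 10.3% of all genes). Ccrn4l (nocturnin), a circadian gene of the deadenylase family, was at 18.6 ± 3.52 CPM for sham, 28 ± 3.67 for T and 11.4 ± 0.874 for A + T (SD, n = 3). It rose by 0.59 ± 0.15 in T vs. S (adjusted P = 0.0173, edgeR) and fell by 1.29 ± 0.15 in A + T vs. T (adjusted P = 0.00269), and unlike Fam46b it was also lower in A + T vs. S (log2 fold change −0.70 ± 0.15, adjusted P = 0.0217).

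Pan3, a subunit of the PAN deadenylase, rose by 0.33 ± 0.09 in T vs. S (adjusted P = 0.0214, edgeR) and by 0.49 ± 0.09 in A + T vs. S (adjusted P = 0.0103), and Cnot10 of the CCR4-NOT complex rose by 0.27 ± 0.07 in T vs. S (adjusted P = 0.0277). Btg1, which recruits CCR4-NOT, rose by 0.57 ± 0.12 in A + T vs. T (adjusted P = 0.0247, edgeR) and by 0.61 ± 0.12 in A + T vs. S (adjusted P = 0.0146). Parn, the poly(A)-specific ribonuclease, rose by 0.51 ± 0.13 in A + T vs. S (adjusted P = 0.0395, edgeR).

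**Figure D5:**
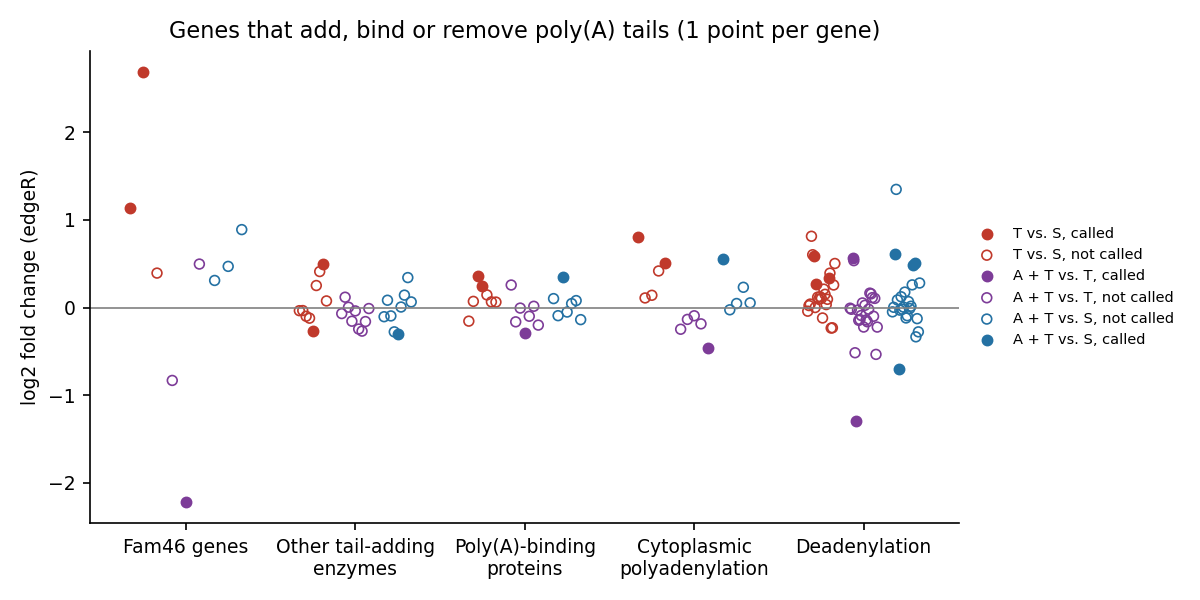
Log2 fold changes of the Fam46 genes and of the other genes that add, bind or remove poly(A) tails, by list, with 1 point per gene and comparison, filled where edgeR called the gene. Fam46b in T vs. S (2.68) and in A + T vs. T (−2.21) lies outside the range of the other 44 genes in those comparisons (−0.26 to 0.81 and −1.29 to 0.57). Fam46b was chosen with these values known.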

How the data were processed

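The mRNA of 9 hearts was sequenced, 3 each labelled S, T and A + T, and groups were taken from the sample labels. The authors prepared libraries from 100 ng of total RNA with an RNA integrity number of at least 7, sequenced 75-base paired ends, aligned them to mm10 with STAR and assigned unique reads to RefSeq genes with featureCounts (strand-specific, lowest mapping quality 10). The submitters' processing notes also name FastQC and edgeR. All hearts were extracted and sequenced at one time. The authors deposited the counts without normalization, 17333 rows of which 3443 were blank and held no gene. They also deposited log2 values. Over 11384 genes these differed from the log2 CPM computed here by a constant per gene and per library (median SD 0.00119). Values scaled by gene length would do so, as would values scaled by any other factor per gene. The gene lengths were not compared with that constant. How a poly(A) tail's length acts on mRNA enrichment was not tested.

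Genes whose CPM was below 0.5 in over 4 of 9 libraries were dropped, which left 13364. All 9 libraries entered 1 fit of edgeR 4.0.16 (R 4.3.3), with TMM scaling, the quasi-likelihood test and Benjamini-Hochberg adjustment over all genes tested. A gene was called at an adjusted P under 0.05. The SE is the log2 fold change over the square root of the F statistic. All libraries counted as separate animals because the labels number them separately. No 2 libraries of a group agreed within counting error (at least 7.63 per gene on a chi-square scale), which by itself does not show separate animals. Counting errors cover counting error only, since the reads carried no molecular identifiers.

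The members and gene lists were chosen with earlier results of these data known. The text names the 3 members, at most 6 called poly(A) genes per comparison by absolute log2 fold change, the partners and substrates, and per member the 5 genes with the highest Pearson r of log2 CPM (prior count 2, mean of at least 10 counts). Papola, Paip1 and Cnot10 are named in addition, after their values were seen. Alternatives were DESeq2 1.42.0, upper-quartile scaling, scaling by library size alone, leaving genes unfiltered, a minimum of 10 counts per library, a fit of the compared groups alone, limma 3.58.1 on the deposited log2 values, and fits without each animal. Leaving out animals 12 and 22 together was added after seeing the data. The fit was tested on simulated data. Figures were drawn with Python 3.11.15 and matplotlib 3.10.9.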

Additional observations from a re-analysis of the deposited data

How the results depend on the processing

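With 3 animals per group, the spread between animals exceeded the counting error for each Fam46 gene. No paired analysis was possible because the labels number the animals separately and the groups share no number. Under 7 other ways of fitting, Fam46b kept its direction and its calls, with log2 fold changes of 2.65 to 2.71 in T vs. S and −2.23 to −2.17 in A + T vs. T. Fam46a in T vs. S lay at 1.07 to 1.15 and was called in 7 of 7. In A + T vs. T Fam46a was called with DESeq2 (−0.84), with library size only (−0.80) and without animals 12 and 22 (−1.13), a setting chosen after seeing the data. Without animals 12 and 22, Fam46c in T vs. S turned to −0.20.

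With each animal left out in turn, Fam46a ranged from 0.92 to 1.29 in T vs. S (called in 9 of 9), from −1.08 to −0.60 in A + T vs. T (called in 1, without animal 22) and from 0.07 to 0.52 in A + T vs. S. Fam46b ranged from 2.39 to 3.17 (9 of 9), from −2.61 to −1.92 (8 of 9, not without animal 11) and from 0.08 to 0.96. Fam46c ranged from −0.21 (without animal 12) to 0.66, from 0.11 to 1.10 and from 0.51 to 1.28, with no call. Genes called ranged from 1769 (without animal 11) to 3796 in T vs. S, from 130 (without animal 11) to 1005 in A + T vs. T and from 260 (without animal 2) to 1083 in A + T vs. S. Of the 44 poly(A) genes, 4 to 13, 2 to 4 and 1 to 7 were called.

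With all animals, 2838, 786 and 1110 genes and 9, 4 and 7 poly(A) genes were called. With library size only, 1636, 438 and 555 genes were called, and 3, 1 and 1 poly(A) genes. In A + T vs. T, DESeq2 called 1200 genes, and the fit with only the groups compared called 208 genes and 2 poly(A) genes. Why these counts moved was not tested, except that leaving out animals reduces the samples in the fit.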
